A study of Homo sapiens with 12 samples.

Results

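The VEGF, neuropilin and angiopoietin-like genes followed here are 10 of the 58051 genes in the count tables. They are the ligand genes VEGFA, VEGFB, VEGFC and PGF, the receptor genes FLT1 and KDR, the co-receptor genes NRP1 and NRP2, and the angiopoietin-like genes ANGPTL4 and ANGPTL2, matched by symbol to their Ensembl identifiers. ANGPTL4 and VEGFC were chosen on their higher levels in the erlotinib-resistant cells of these same libraries, so their values in those cells are given as a description without a test, and counts that involve erlotinib-resistant cells run over the other 8 genes.

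RNA with poly(A) tails was sequenced from cultures of FaDu, a line from a hypopharyngeal squamous cell carcinoma, and Cal27, a line from a squamous cell carcinoma of the tongue, both labelled wild type in genotype. Each line was present as parental cells, which the study calls sensitive, as afatinib-resistant cells (AfaR) and as erlotinib-resistant cells (ErlR). There were 2 biological replicates in each of the 6 groups and 12 libraries in all. The study also reported that parental Cal27 cells were intrinsically more resistant to both drugs than parental FaDu cells. Afatinib inhibits the ERBB receptor family and erlotinib inhibits EGFR. The resistant cells came from stepwise rising doses of either drug and were thawed without it, then kept under the selecting drug and taken off it again shortly before experiments. Each model is 1 resistant population per line and drug, and all libraries carry the same batch label, so the p-values measure the spread between 2 cultures of 1 population.

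VEGF ligands are secreted dimers that bind receptor tyrosine kinases on endothelial cells. VEGF-A signals mainly through KDR, while FLT1 binds VEGF-A, VEGF-B and PGF and can act as a decoy, and VEGF-C drives lymphatic vessel growth through FLT4. Neuropilins are co-receptors for VEGF ligands and for class 3 semaphorins, and carcinoma cells commonly carry them. ANGPTL4 is a secreted inhibitor of lipoprotein lipase that is induced by PPAR factors and by hypoxia, and ANGPTL2 is a secreted relative linked to inflammation.

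The libraries held 16334937 to 23399259 gene counts each. FaDu parental and AfaR libraries held 20156109 to 23399259, with 5.64% to 5.82% of all counts from ERCC spike-ins. FaDu ErlR libraries held 16408108 and 16383694, with 3.95% and 4.6%, and Cal27 libraries 16334937 to 16689855, with 3.86% to 4.54%. Comparisons of FaDu ErlR with other FaDu cells, and of the parental lines, coincide with this difference, whose part was not tested. Levels are given as CPM, counts scaled to a common library size, after TMM normalization over the 12 libraries, with the value of replicate 1 before that of replicate 2. Groups were compared with edgeR's quasi-likelihood test over all genes kept by its filter on low counts, and a gene passed at a Benjamini-Hochberg adjusted p under 0.05. With all libraries in the fit, KDR and ANGPTL2 were below that filter in every comparison, and FLT1 was below it in Cal27. Counts of the followed genes include those below the filter, while shares over all genes are over tested genes only. Scaling to the ERCC spike-ins in place of the genes moved the median log2 fold change of all genes to 0.18 in FaDu AfaR and to 0.49 in FaDu ErlR, against 0.01 and 0.00 in the Cal27 models. Values under that scaling are given below where a call or a direction depended on it. Fewer cells of a given state and less RNA per cell cannot be told apart in these bulk libraries.

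The promoters of 8 of the 10 genes were found in the RefSeq table of GRCh38.p14, and VEGFA and NRP1 were not matched. The 250 bases before the RefSeq start are shown for VEGFC and ANGPTL4, which stood higher together in both ErlR models, and for NRP2, which fell in both FaDu models. The windows, each read 5′ to 3′ along the gene, are chr4:176792923-176793172 on the minus strand for VEGFC, chr19:8363905-8364154 on the plus strand for ANGPTL4 and chr2:205682251-205682500 on the plus strand for NRP2. The RefSeq starts of ANGPTL4 and NRP2 lie downstream of the gene starts in the count tables, so these 2 windows fall inside the gene spans given below. Capitals mark matches on either strand to the hypoxia response element cores ACGTG and GCGTG, the AP-1 site TGANTCA, the SP1 GC box GGGCGG, the TEAD site GGAATG and the SMAD element CAGACA, and adjacent matches run together.
VEGFC: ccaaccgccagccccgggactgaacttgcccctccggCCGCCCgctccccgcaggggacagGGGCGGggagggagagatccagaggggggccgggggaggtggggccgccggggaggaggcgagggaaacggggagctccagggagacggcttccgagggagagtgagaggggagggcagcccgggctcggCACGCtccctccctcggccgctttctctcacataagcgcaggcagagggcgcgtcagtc
ANGPTL4: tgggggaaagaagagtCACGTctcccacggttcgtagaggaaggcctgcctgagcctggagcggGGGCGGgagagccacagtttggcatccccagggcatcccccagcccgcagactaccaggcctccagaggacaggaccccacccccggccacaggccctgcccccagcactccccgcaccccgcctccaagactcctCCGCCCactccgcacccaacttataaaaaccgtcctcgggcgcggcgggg
NRP2: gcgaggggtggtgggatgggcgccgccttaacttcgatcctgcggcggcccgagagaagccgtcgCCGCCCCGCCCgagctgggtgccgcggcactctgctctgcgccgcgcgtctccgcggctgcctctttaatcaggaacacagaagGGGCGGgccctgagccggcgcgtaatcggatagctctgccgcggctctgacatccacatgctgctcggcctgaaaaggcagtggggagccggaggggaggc

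ANGPTL4 held ACGTG at position -234 from its RefSeq start, a core present in 18.5% of the 35116 promoter windows of the same length. VEGFC held GCGTG at position -59, which 32.2% of all windows hold, and NRP2 held neither core. GC boxes were matched 2 times in VEGFC, 2 times in ANGPTL4 and 3 times in NRP2, and 42.6% of all windows hold at least 1. The AP-1, TEAD and SMAD letters were in none of these 3 windows, against 6.57%, 11.9% and 13.6% of all windows. Guanine and cytosine made up 74% of the VEGFC window, 68.8% of the ANGPTL4 window and 70% of the NRP2 window, with a median of 58% over all windows. These matches describe the letters of the reference and were not measured as binding.

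**Figure D1:**
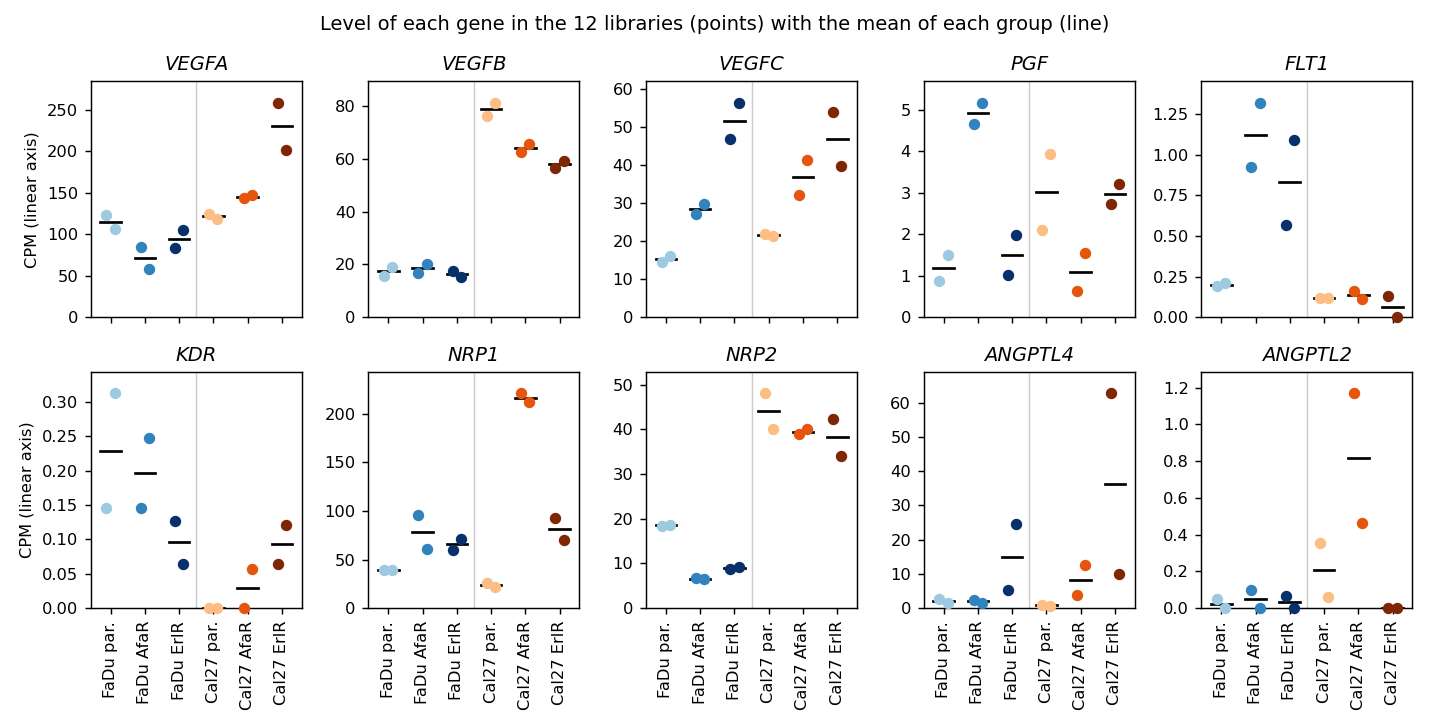
Level in CPM (linear axis from 0, a scale of its own for each gene) of the 10 genes in the 12 libraries, with 2 points per group for the replicates and a line at their mean. VEGFC stands above its parental libraries in all 4 resistant models, NRP1 reaches 221 and 212 CPM in Cal27 AfaR, NRP2 falls below 10 CPM in the resistant FaDu models, and the 2 ErlR replicates of ANGPTL4 lie far apart in both lines.

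VEGFA (ENSG00000112715, chromosome 6, 43770184 to 43786487, plus strand) encodes VEGF-A, the ligand best known for starting new vessels. It had 123 and 106 CPM in FaDu parental, 84.6 and 58.6 in FaDu AfaR and 83.4 and 105 in FaDu ErlR. Cal27 parental had 125 and 119 CPM, Cal27 AfaR 144 and 147 and Cal27 ErlR 259 and 202. The resistant libraries thus lay below their parental libraries in FaDu and above them in Cal27, with the smallest gap between FaDu ErlR replicate 2 and FaDu parental replicate 2. VEGFA fell in FaDu AfaR by 0.69 on the log2 scale (SE 0.186, adjusted p = 0.0339), and rose 1.86-fold in Cal27 ErlR (log2 fold change 0.89, SE 0.141, adjusted p = 0.00208). The differences in FaDu ErlR (-0.26, adjusted p = 0.467) and Cal27 AfaR (0.28, adjusted p = 0.143) did not pass. The fall in FaDu AfaR depended on the libraries and the scaling. Its log2 fold change was -0.59 without FaDu parental replicate 1, -0.79 without parental replicate 2, -0.45 without AfaR replicate 2 and -0.52 with ERCC scaling, and it passed in none of these. In FaDu ErlR the sign turned with ERCC scaling (0.21, adjusted p = 0.333). The rise in Cal27 ErlR passed with each library left out, with log2 fold changes from 0.72 to 1.08.

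VEGFB (ENSG00000173511, chromosome 11, 64234538 to 64238793, plus strand) encodes a FLT1 ligand linked more to fatty acid uptake and cell survival than to sprouting. Cal27 cells carried several times more of it than FaDu cells, with 76.2 and 81.2 CPM against 15.6 and 19.2 CPM in the parental libraries. FaDu AfaR had 16.9 and 20.3 CPM and FaDu ErlR 17.5 and 15.2, so all FaDu groups overlapped. In Cal27 the level was 62.6 and 65.4 CPM in AfaR and 56.5 and 59.1 CPM in ErlR, with no overlap with the parental libraries. The fall in Cal27 ErlR was small (log2 fold change -0.47, SE 0.124, adjusted p = 0.0220), and that in Cal27 AfaR did not pass (-0.27, adjusted p = 0.111). With 1 of the 4 libraries left out, the Cal27 ErlR value stayed between -0.40 (without Cal27 parental replicate 2) and -0.50 (without parental replicate 1), with -0.41 without ErlR replicate 1 and -0.48 without ErlR replicate 2, and passed in none of the 4 fits. In FaDu the log2 fold changes were 0.08 in AfaR and -0.07 in ErlR, the latter 0.42 with ERCC scaling, and none passed.

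VEGFC (ENSG00000150630, chromosome 4, 176683538 to 176792727, minus strand) encodes VEGF-C, the lymphangiogenic ligand. FaDu parental libraries had 14.5 and 16.1 CPM, FaDu AfaR 27.1 and 29.7 and FaDu ErlR 47.0 and 56.5. In Cal27 the values were 21.9 and 21.3 CPM in parental cells, 32.2 and 41.4 in AfaR and 53.9 and 39.8 in ErlR. Every resistant library lay above both parental libraries of its line, and in FaDu the 3 groups did not overlap, while the Cal27 AfaR and ErlR libraries did. The rise in AfaR cells, which the choice of the gene did not rest on apart from the shared parental libraries, was 1.84-fold in FaDu (log2 fold change 0.88, SE 0.146, adjusted p = 0.00729) and 1.73-fold in Cal27 (0.79, SE 0.183, adjusted p = 0.00824). In the ErlR cells it was chosen on, VEGFC stood 3.42-fold higher in FaDu (log2 fold change 1.78) and 2.13-fold higher in Cal27 (1.09). The AfaR rise did not pass without FaDu parental replicate 1 (0.80, adjusted p = 0.0830) or without Cal27 AfaR replicate 2 (0.62, adjusted p = 0.0717), and with 1 library left out the ErlR values ranged from 1.63 to 1.91 in FaDu and from 0.88 to 1.31 in Cal27.

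PGF (ENSG00000119630, chromosome 14, 74941834 to 74955784, minus strand) encodes placental growth factor, a ligand of FLT1. It was scarce, with 0.879 and 1.51 CPM in FaDu parental, 4.66 and 5.17 in FaDu AfaR and 1.01 and 1.99 in FaDu ErlR. The Cal27 values were 2.11 and 3.94 CPM in parental, 0.639 and 1.56 in AfaR and 2.72 and 3.22 in ErlR. FaDu AfaR stood above, and Cal27 AfaR below, both parental libraries of its line, and the ErlR groups overlapped theirs. PGF rose 4.06-fold in FaDu AfaR (log2 fold change 2.02, SE 0.403, adjusted p = 0.0131) and fell 2.72-fold in Cal27 AfaR (-1.44, SE 0.491, adjusted p = 0.0437). In the ErlR models the values were 0.35 in FaDu (adjusted p = 0.713) and -0.05 in Cal27 (adjusted p = 0.953). These calls rest on few counts, 18 to 125 per FaDu parental or AfaR library and 12 to 67 in Cal27. The FaDu AfaR rise did not pass without FaDu parental replicate 1 (1.67) or AfaR replicate 2 (1.95), nor the Cal27 AfaR fall without Cal27 parental replicate 2 (-0.92) or AfaR replicate 1 (-0.94).

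FLT1 (ENSG00000102755, chromosome 13, 28300344 to 28495128, minus strand) encodes VEGF receptor 1. Each FaDu parental library had 4 counts of it, FaDu AfaR had 19 and 32 and FaDu ErlR 9 and 17. Cal27 libraries had 0 to 3 counts in all groups. The FaDu values equal 0.195 and 0.209 CPM in parental, 0.923 and 1.32 in AfaR and 0.569 and 1.09 in ErlR, without overlap between parental and resistant libraries. FLT1 was kept by the filter in FaDu through its resistant libraries, where it was high, so its fitted log2 fold changes of 2.43 in AfaR (SE 0.587) and 2.02 in ErlR (SE 0.622) are given as a description. With 1 library left out the AfaR value lay between 2.15 and 2.65.

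KDR (ENSG00000128052, chromosome 4, 55078477 to 55125589, minus strand) encodes VEGF receptor 2, the main signalling receptor for VEGF-A. Its counts were 3 and 6 in FaDu parental, 3 and 6 in FaDu AfaR and 2 and 1 in FaDu ErlR. In Cal27 they were 0 and 0 in parental, 0 and 1 in AfaR and 1 and 2 in ErlR. A count of 0 allows up to 3 counts, or 0.176 CPM in each of the Cal27 parental libraries, so no difference between the groups was detectable at this depth. Intervals of this kind cover counting error only.

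Both kinase receptors were thus close to the limit of detection in these cultures, and so were most markers of endothelial cells. Of a list of 10 endothelial markers, 3 to 5 reached 1 CPM in each library. CLDN5 had 0 to 9 counts per library and VWF 0 to 81, with 81 in FaDu AfaR replicate 2. The summed level of the list was 52.6 and 62.9 CPM in FaDu parental, 69.7 and 107 in FaDu AfaR and 39.7 and 42.6 in FaDu ErlR. Most of it in FaDu was EGFL7, with 31.8 to 83.8 CPM. In Cal27 parental and AfaR the sum was 47.0 to 52.4 CPM, most of it CDH5 with 28.3 to 35.3 CPM. In Cal27 ErlR the sum was 5.12 and 8.87 CPM, and CDH5 (log2 fold change -3.55) and EGFL7 (-3.15) fell. Whether this movement has a part in the FLT1 values was not tested.

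NRP1 (ENSG00000099250, chromosome 10, 33177492 to 33336262, minus strand) encodes neuropilin-1, the co-receptor of VEGF-A and of SEMA3A. FaDu parental libraries had 39.3 and 39.3 CPM, FaDu AfaR 95.4 and 60.3 and FaDu ErlR 60.2 and 70.8. Cal27 libraries went from 25.4 and 21.7 CPM in parental to 221 and 212 in AfaR and 93.1 and 70.0 in ErlR. All 8 resistant libraries were above the parental libraries of their line, and the 3 Cal27 groups did not overlap. The rise was 9.35-fold in Cal27 AfaR (log2 fold change 3.22, SE 0.169, adjusted p = 3.21e-06), 3.41-fold in Cal27 ErlR (1.77, SE 0.162, adjusted p = 0.000154) and 1.96-fold in FaDu AfaR (0.97, SE 0.200, adjusted p = 0.0145). In FaDu ErlR the log2 fold change of 0.76 (SE 0.201, adjusted p = 0.0686) did not pass, and it did pass with DESeq2 (0.76), with ERCC scaling (1.23), without the filter on low counts (0.74) and in fits of 12 (0.77) or 4 libraries (0.76). Both Cal27 rises passed with each library left out (3.12 to 3.34 and 1.57 to 1.98). The FaDu AfaR rise did not pass without FaDu parental replicate 1 (0.96) or replicate 2 (0.97), and its value was 0.59 without AfaR replicate 1 and 1.27 without AfaR replicate 2.

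NRP2 (ENSG00000118257, chromosome 2, 205681990 to 205798133, plus strand) encodes neuropilin-2, the co-receptor of VEGF-C and of SEMA3F. Its level was 18.4 and 18.6 CPM in FaDu parental, 6.75 and 6.45 in FaDu AfaR and 8.67 and 9.11 in FaDu ErlR. In Cal27 the libraries had 48.1 and 40.0 CPM in parental, 38.9 and 40.1 in AfaR and 42.3 and 34.1 in ErlR. The 3 FaDu groups did not overlap, whereas the Cal27 groups did. NRP2 fell 2.83-fold in FaDu AfaR (log2 fold change -1.50, SE 0.174, adjusted p = 0.00209) and 2.06-fold in FaDu ErlR (-1.04, SE 0.173, adjusted p = 0.0187). The Cal27 values of -0.13 in AfaR (adjusted p = 0.537) and -0.23 in ErlR (adjusted p = 0.302) did not pass. The FaDu AfaR fall passed with each library left out and with ERCC scaling (-1.32). The FaDu ErlR fall was -0.56 with ERCC scaling (adjusted p = 0.0629) and did not pass without FaDu parental replicate 1 (-1.05), parental replicate 2 (-1.03) or ErlR replicate 2 (-1.08).

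The balance of the neuropilins per kilobase of exon therefore differed between parental and resistant libraries of either line. In FaDu the ratio of NRP1 to NRP2 was 2.57 and 2.55 in parental, 17.0 and 11.3 in AfaR and 8.38 and 9.37 in ErlR. Cal27 parental was the group with more NRP2 than NRP1, with ratios of 0.637 and 0.653, against 6.83 and 6.36 in AfaR and 2.65 and 2.47 in ErlR. The ratio rose in FaDu with less NRP2 as well as more NRP1, and in Cal27 with more NRP1 and a similar level of NRP2. It was computed after the levels of both genes were seen and is given without a test.

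**Figure D2:**
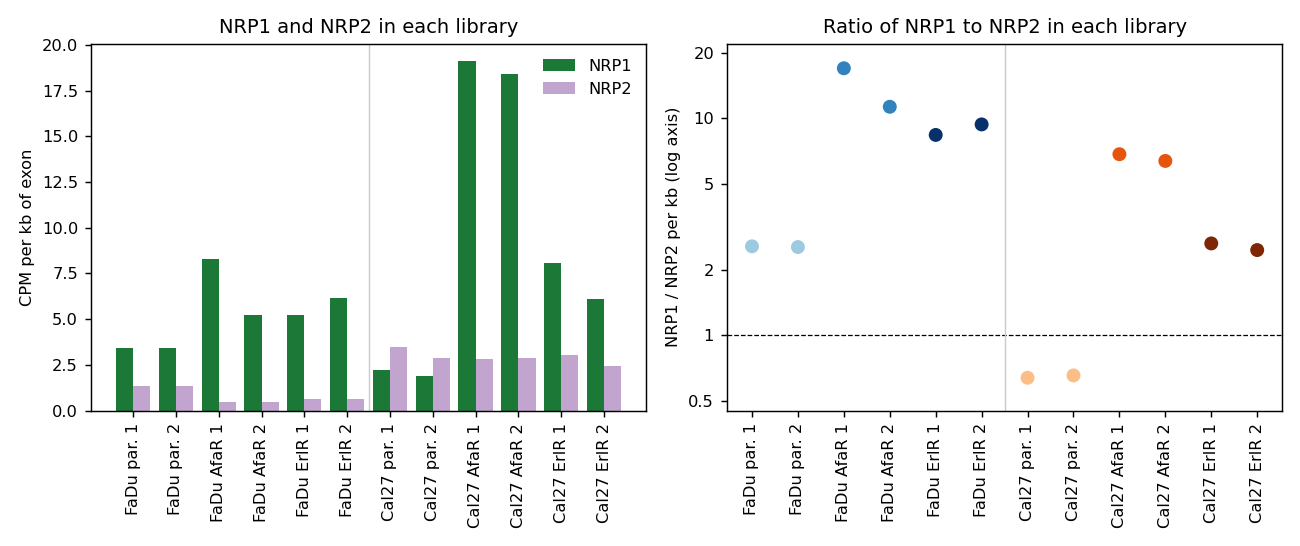
Left, CPM per kilobase of exon (bars from 0) of NRP1 and NRP2 in each of the 12 libraries. Right, the ratio of NRP1 to NRP2 per kilobase in the same libraries on a log axis with a dashed line at 1. Both Cal27 parental libraries lie below the line at 0.637 and 0.653, and each resistant library lies above the parental libraries of its line.

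ANGPTL4 (ENSG00000167772, chromosome 19, 8363289 to 8374373, plus strand) encodes the lipoprotein lipase inhibitor. It was low in parental cells, at 2.54 and 1.41 CPM in FaDu and 0.939 and 0.705 CPM in Cal27. FaDu AfaR had 2.43 and 1.45 CPM and Cal27 AfaR 3.94 and 12.7. The ErlR libraries on which it was chosen had 5.25 and 24.4 CPM in FaDu and 62.7 and 9.96 CPM in Cal27. Each ErlR library lay above its parental libraries, and within a group the higher ErlR library exceeded the lower by more than the lower exceeded the parental level. The fitted values in ErlR were 7.55-fold in FaDu (log2 fold change 2.92, SE 0.648) and 42.8-fold in Cal27 (5.42, SE 0.946), described without a test. Without FaDu ErlR replicate 2 the FaDu value was 1.42, and without Cal27 ErlR replicate 1 the Cal27 value was 3.59. In Cal27 AfaR, which the choice did not rest on apart from the parental libraries, ANGPTL4 rose 10.1-fold (3.34, SE 0.968, adjusted p = 0.0230). That rise did not pass without Cal27 AfaR replicate 2 (2.30, adjusted p = 0.166) or without Cal27 parental replicate 2 (3.15). FaDu AfaR differed little from parental cells (-0.06, SE 0.684, adjusted p = 0.964, and 0.12 with ERCC scaling).

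The exons of ANGPTL4 overlap those of RAB11B-AS1 on the opposite strand, and the strand setting of the counting is not given in the sources used here. RAB11B-AS1 had 0.506 and 0.577 CPM in FaDu ErlR and 1.36 and 1.21 CPM in Cal27 ErlR, against 0.244 to 0.627 CPM in FaDu parental and 1.76 and 2.17 CPM in Cal27 parental. The opposite-strand genes that share exon positions with VEGFA (ENSG00000272114), NRP1 (ENSG00000238258) and NRP2 (ENSG00000225216) had 0 to 3 counts in any library.

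ANGPTL2 (ENSG00000136859, chromosome 9, 127087332 to 127122883, minus strand) lies within RALGPS1 of the opposite strand without shared exons. It had 0 to 2 counts in each FaDu library. Cal27 parental libraries had 6 and 1 counts, Cal27 AfaR 22 and 8 and Cal27 ErlR 0 and 0. The Cal27 AfaR libraries were above the parental ones, and the 0 counts in ErlR allow up to 0.194 CPM, a difference from 0.352 and 0.0588 CPM in parental cells that this depth cannot show.

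**Figure D3:**
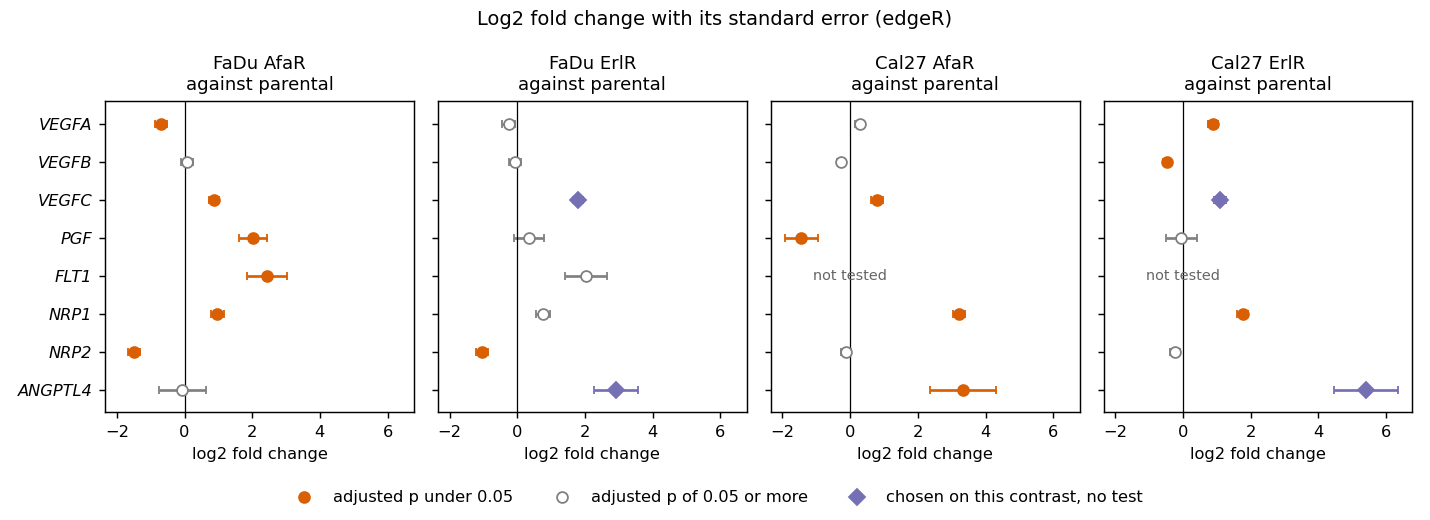
Log2 fold change of resistant over parental cells with its standard error for the 8 genes that reached the test, 1 panel per resistant model. Filled circles passed at an adjusted p under 0.05, among them FLT1 in FaDu AfaR, which the filter kept through its resistant libraries, open circles did not, and diamonds are ANGPTL4 and VEGFC in ErlR cells, the contrast they were chosen on. NRP1 is to the right of 0 in all 4 panels, at 3.22 in Cal27 AfaR, and NRP2 is at -1.50 and -1.04 in FaDu.

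Counted over the genes, FaDu AfaR had 3 of the 10 higher (VEGFC, PGF and NRP1), 2 lower (VEGFA and NRP2), 2 that did not pass, 2 below the filter and FLT1, which is left out of the count for the reason given above, where 17.9% of 15092 genes passed in either direction. Cal27 AfaR had 3 higher (VEGFC, NRP1 and ANGPTL4), 1 lower (PGF), 3 that did not pass and 3 below the filter, beside 37.6% of 15269 genes. VEGFC and ANGPTL4 were chosen against these same parental libraries, so their part in both AfaR counts is not independent of the choice. Without them the higher genes in FaDu AfaR were PGF and NRP1. In Cal27 AfaR 1 gene was then higher (NRP1) and 1 lower (PGF) of 5 tested. Over the 8 genes not chosen on ErlR cells, 1 of the 6 tested passed in FaDu ErlR (NRP2, lower) beside 4.18% of all genes. In Cal27 ErlR 3 of the 5 tested passed (VEGFA and NRP1 higher, VEGFB lower) beside 27.6%. The count for FaDu AfaR moved with single libraries. It was 1 (NRP2) without FaDu parental replicate 1, 3 without parental replicate 2 and 3 without AfaR replicate 2. For FaDu ErlR it was 0 without FaDu parental replicate 1, parental replicate 2 or ErlR replicate 2, and for Cal27 AfaR it was 2 without Cal27 parental replicate 2 or AfaR replicate 2.

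Ordered by level per kilobase of exon, which allows genes to be compared, VEGFB led in FaDu parental with 11.3 ± 1.62 CPM per kb (SD, n = 2), before VEGFA with 7.93 ± 0.799 and VEGFC with 6.32 ± 0.462. NRP1 followed with 3.41 CPM per kb and NRP2 with 1.33, and no neighbours in this order overlapped. In FaDu AfaR VEGFC drew level with VEGFB, at 11.7 ± 0.749 against 12.0 ± 1.59 CPM per kb with overlapping libraries. In FaDu ErlR VEGFC led with 21.4 ± 2.78 CPM per kb, without overlap with VEGFB at 10.6 ± 1.06, and ANGPTL4 at 5.97 ± 5.45 overlapped both VEGFA and NRP1. In all 3 Cal27 groups VEGFB led, with 50.9 ± 2.30 CPM per kb in parental, 41.4 ± 1.28 in AfaR and 37.4 ± 1.19 in ErlR. NRP1 moved from the fifth place in Cal27 parental (2.04 ± 0.229 CPM per kb) to the second in Cal27 AfaR (18.8 ± 0.555). In Cal27 ErlR VEGFC, VEGFA, ANGPTL4 and NRP1 followed VEGFB with 19.4, 16.0, 14.6 and 7.08 CPM per kb, and each overlapped the next. These lengths cover all annotated exons, so a gene with long unused exons, as VEGFA with 14.4 kb may be, is placed too low.

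The lines differed before selection. Between parental cells, Cal27 had 4.51-fold more VEGFB (log2 fold change 2.17, SE 0.145, adjusted p = 1.75e-07) and 2.38-fold more NRP2 (1.25, SE 0.145, adjusted p = 1.50e-05) than FaDu. VEGFC (0.50, adjusted p = 0.0284) and PGF (1.33, adjusted p = 0.0304) were higher too, and NRP1 was lower (-0.74, adjusted p = 0.00749). VEGFA (0.09) and ANGPTL4 (-1.27) did not pass. These 5 of 10 genes, with KDR and ANGPTL2 below the filter, stand beside 55.6% of the 16240 genes tested in this comparison. VEGFC, which is among the 5, and ANGPTL4 were chosen on contrasts that used these parental libraries. Their values here are not independent of that choice. ERCC scaling moved the median of all genes to 0.62 here. With it NRP1 was at -0.16 and no longer passed, and VEGFA was at 0.67 and passed. Without Cal27 parental replicate 2, 2 genes passed (VEGFB and NRP2), with PGF at 0.82, NRP1 at -0.63 and VEGFC at 0.52. VEGFC did not pass when any of the 4 libraries was left out, with values of 0.41 without FaDu parental replicate 1, 0.56 without FaDu parental replicate 2 and 0.48 without Cal27 parental replicate 1. PGF was at 0.98 and did not pass without FaDu parental replicate 1.

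The response to selection also differed between the lines when tested as an interaction, FaDu minus Cal27. For AfaR the difference passed for PGF (3.48, SE 0.673, adjusted p = 0.00369), NRP1 (-2.23, SE 0.280, adjusted p = 0.000202), NRP2 (-1.35, SE 0.208, adjusted p = 0.000842) and VEGFA (-0.95, SE 0.251, adjusted p = 0.0196), which is 4 of 10 genes beside 18.6% of 16240 genes. PGF went in opposite directions, NRP1 rose more in Cal27, NRP2 fell more in FaDu, and VEGFA fell in FaDu. The VEGFC effects differed by 0.11 (SE 0.243, adjusted p = 0.810), and the ANGPTL4 difference of -3.39 (SE 1.43, adjusted p = 0.121) did not pass. For ErlR the differences of VEGFA (-1.17, adjusted p = 0.00771), NRP1 (-1.03, adjusted p = 0.0240) and NRP2 (-0.83, adjusted p = 0.0170) passed, 3 of 8 genes beside 18.6%. With ERCC scaling, which moved the median of the ErlR interaction to 0.49, NRP1 (-0.57) and NRP2 (-0.36) did not pass and VEGFA (-0.71) did. For AfaR, PGF, NRP1 and NRP2 passed with each library left out, and VEGFA did not without FaDu parental replicate 1 (-0.85), FaDu AfaR replicate 2 (-0.69), Cal27 parental replicate 2 (-0.92) or Cal27 AfaR replicate 2 (-0.94). For ErlR, VEGFA passed throughout, and neither NRP1 nor NRP2 did without FaDu parental replicate 1 (-1.02 and -0.83), FaDu parental replicate 2 (-1.03 and -0.82), FaDu ErlR replicate 1 (-0.91 and -0.79), Cal27 parental replicate 2 (-0.92 and -0.70) or Cal27 ErlR replicate 1 (-0.81 and -0.66).

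ErlR and AfaR cells of the same line were compared directly as well. In Cal27, ErlR cells had 2.74-fold less NRP1 than AfaR cells (log2 fold change -1.46, SE 0.156, adjusted p = 9.12e-05), 1.53-fold more VEGFA (0.61, SE 0.140, adjusted p = 0.00557) and 2.63-fold more PGF (1.40, SE 0.493, adjusted p = 0.0398). These are 3 of 8 genes, of which FLT1, KDR and ANGPTL2 were below the filter, beside 49.6% of all genes tested. In FaDu, ErlR cells had 3.20-fold less PGF than AfaR cells (-1.68, SE 0.402, adjusted p = 0.0250), 1 of 8 genes beside 15.7%. PGF thus differed in opposite directions, and NRP2 in FaDu stood at 0.46 (adjusted p = 0.105), with 0.77 and a pass under ERCC scaling. The PGF difference in FaDu did not pass without AfaR replicate 1 (-1.74), AfaR replicate 2 (-1.61) or ErlR replicate 1 (-1.27), and VEGFA passed (0.73) without AfaR replicate 1. In Cal27, PGF did not pass without AfaR replicate 1 (0.89), ErlR replicate 1 (1.53) or ErlR replicate 2 (1.29), nor VEGFA without ErlR replicate 1 (0.44), and the NRP1 difference passed in each of these fits.

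Genes that work with the 10 were followed in lists chosen with earlier results of these data known. The share of each list's tested genes that passed is read against the share over all genes, which for FaDu was 17.9% (AfaR) and 4.18% (ErlR) and for Cal27 37.6% (AfaR) and 27.6% (ErlR). Of 13 close relatives (VEGFD, FLT4, the angiopoietins, their TIE receptors and other ANGPTL genes), 1 reached the test in each line. FLT4, the VEGF-C receptor, had 4 and 5 counts in FaDu parental and 32 and 30 in FaDu AfaR. ANGPT1, a TIE2 ligand, had 1 and 5 counts in Cal27 parental, 214 and 112 in Cal27 AfaR and 0 in both Cal27 ErlR libraries. The filter kept both genes through the group where they were high, so their counts are a description without a test.

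Class 3 semaphorins and plexins, which share the neuropilins with VEGF, passed in 4 of 12 genes higher and 0 lower in Cal27 AfaR, with a median log2 fold change of 0.24 over the 11 tested beside 0.00 over all genes. The plexin PLXND1 went from 5.75 and 8.28 to 80.6 and 62.0 CPM (3.37, adjusted p = 2.36e-05), SEMA3C from 28.2 and 29.7 to 260 and 230 CPM (3.11, adjusted p = 8.96e-05), and the NRP1 ligand SEMA3A from 47.3 and 40.0 to 126 and 118 CPM (1.51, adjusted p = 0.000111). In Cal27 ErlR 4 were higher and 3 lower (median 0.38), with SEMA3C at 1.94 and SEMA3E at -1.37, and SEMA3D lower with 0 and 2 counts in ErlR against 78 and 56 in parental cells. FaDu AfaR had 1 higher, SEMA3E (1.98, adjusted p = 0.0128), and 1 lower, SEMA3B (-1.79, adjusted p = 0.0144), with a median of 0.09. FaDu ErlR had 0 of 12, with a median of 0.17. The share that passed was 36.4% in Cal27 AfaR and 18.2% in FaDu AfaR, both near the share over all genes, and 63.6% in Cal27 ErlR.

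VEGF-C is made mature by CCBE1 with ADAMTS3 or ADAMTS14 and by furin-type convertases. The list of 10 genes held these and also the proteases CTSD, PLAT and PLAU. Of the 10 genes 6 were higher and 3 lower in Cal27 AfaR (median 0.69). There ADAMTS14 went from 15 and 6 counts to 515 and 246, the libraries through which the filter kept it. ADAMTS3 rose by 3.26, while the plasminogen activator PLAT was at -2.84. Cal27 ErlR had 1 higher, CCBE1 (1.38, adjusted p = 0.0132), and 5 lower (median -0.99), among them PLAT (-3.45) and the convertase PCSK5 (-4.91). In FaDu AfaR 3 were higher, with ADAMTS3 at 1.55 and PCSK5 at 1.24, and 1 was lower, CCBE1 (-1.30, adjusted p = 0.0178), with a median of 0.15. CCBE1 was also the 1 gene that fell in FaDu ErlR (-1.74, adjusted p = 0.0214, median 0.20). Thus 9 of 10 tested genes of the list, ADAMTS14 and PLAT among them, passed in Cal27 AfaR and 6 of 10 in Cal27 ErlR. In FaDu 44.4% (AfaR) and 11.1% (ErlR) of the 9 tested did.

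Among 18 effectors of VEGF receptors, 4 were higher and 1 lower in FaDu AfaR (median 0.12), 2 and 0 in FaDu ErlR (0.23), 5 and 5 in Cal27 AfaR (0.19) and 3 and 2 in Cal27 ErlR (0.07). The share that passed was 27.8%, 11.1%, 55.6% and 27.8% in that order, and in Cal27 ErlR it equalled the share over all genes to within 1 percentage point. Both FaDu counts of higher genes include NOS3, with 0 counts in each parental library, 17 in each AfaR library and 5 to 11 in ErlR. The filter kept NOS3 in FaDu through its resistant libraries, so the FaDu shares that count it are not read against the share over all genes. Without NOS3, FYN was the higher gene that passed in FaDu ErlR. The SRC-family kinase FYN rose in FaDu ErlR (1.10, adjusted p = 0.0152), Cal27 AfaR (2.27) and Cal27 ErlR (1.08), and RCAN1, a calcineurin regulator, fell in Cal27 AfaR (-1.08) and Cal27 ErlR (-1.17).

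Partners of ANGPTL4 and ANGPTL2, 12 genes of lipase handling and adhesion, had 5 higher and 0 lower in Cal27 AfaR (median 0.73). The cadherin CDH11 (2.80) and the integrin subunits ITGA5 (1.99) and ITGB5 (1.32) led. Cal27 ErlR had 1 higher, ITGB5 (1.43), and 2 lower (median -0.40), CDH11 (-3.52) and the lipase maturation factor LMF1 (-1.97). FaDu AfaR had 1 higher, CDH11, with 31 and 68 counts against 6 and 11 in parental cells and kept by the filter through its resistant libraries (list median 0.17), and FaDu ErlR had 0 (0.23). The share that passed was 55.6% in Cal27 AfaR, and 33.3% in Cal27 ErlR and 14.3% in FaDu AfaR were near the share over all genes. LPL, the lipase that ANGPTL4 inhibits, had 0 to 5 counts per library.

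HIF factors and targets other than the 10 genes passed in 0 of 20 higher and 6 lower in Cal27 AfaR (median -0.32), where 18.2% of all genes passed as lower, and in 0 higher and 7 lower in Cal27 ErlR (median -0.59 beside -0.03 over all genes), where 15.3% did. CA9, a carbonic anhydrase induced by hypoxia, had 19.8 and 58.5 CPM in Cal27 parental, 4.37 and 2.02 in AfaR (-3.58, adjusted p = 0.000702) and 3.95 and 3.52 in ErlR (-3.41, adjusted p = 0.00168). EGLN3 (-3.48) and DDIT4 (-1.82) also fell in Cal27 ErlR. There 4 of the 20 genes had a value above 0. LDHA had 2090 to 2740 CPM against 1720 to 1960 in parental cells, and ADM 46.0 to 70.4 against 38.3 to 40.4. The share that passed in either direction was 30.0% in Cal27 AfaR, below the share over all genes, and 35.0% in Cal27 ErlR. The part of these genes in the VEGFA and ANGPTL4 values was not tested. FaDu AfaR had 4 higher and 1 lower (median 0.12), with EPAS1 (1.27, adjusted p = 0.00275), ADM (1.18) and EGLN3 (1.04) higher, and FaDu ErlR had 0 higher and 1 lower (median -0.01), or 26.3% and 5.26% of the 19 tested. PPAR factors and targets, 18 genes, gave 4 higher and 0 lower in FaDu AfaR (median 0.09), 2 and 0 in FaDu ErlR (0.14), 6 and 1 in Cal27 AfaR (0.30) and 2 and 5 in Cal27 ErlR (-0.01), which is 28.6%, 14.3%, 46.7% and 46.7% of the genes tested. CREB3L3 is among the higher PPAR genes in Cal27 AfaR, with 0 counts in each parental library and 18 to 31 in AfaR. The filter kept CREB3L3 through those AfaR libraries, so the Cal27 AfaR share that counts it is not read against the share over all genes. PPARG itself rose in FaDu ErlR (1.02, adjusted p = 0.0465) and Cal27 AfaR (2.07, adjusted p = 0.00299). FaDu AfaR had 8.22 to 11.2 CPM of PPARG against 4.83 to 5.38 in parental cells. Cal27 ErlR had 2.27 to 5.65 CPM of it against 3.17 to 3.34. Any link of PPARG to ANGPTL4 was not tested.

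**Figure D4:**
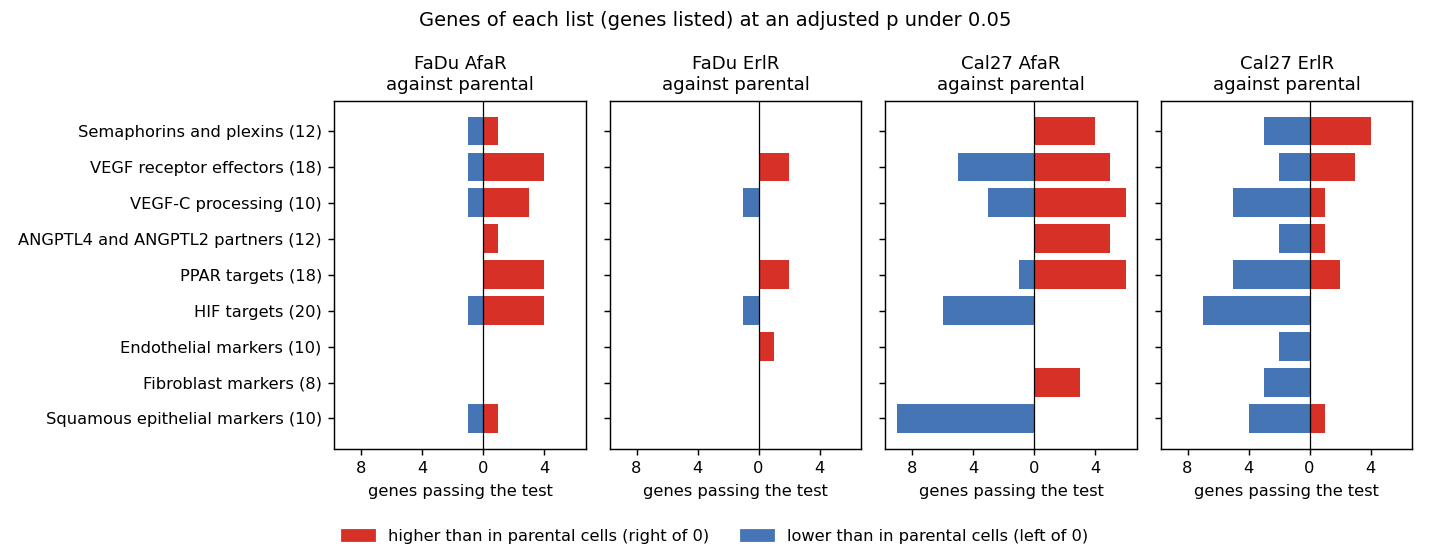
Number of genes in each list that passed at an adjusted p under 0.05, higher than in parental cells to the right of 0 and lower to the left, with the number of listed genes in brackets and 1 panel per resistant model. In Cal27, HIF targets lie to the left, with 6 genes in AfaR and 7 in ErlR, and in Cal27 AfaR the semaphorins and plexins (4) and the fibroblast markers (3) lie to the right and the squamous markers (9) to the left.

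Some fibroblast markers rose and most squamous epithelial markers fell in Cal27 AfaR, the model with the most NRP1, PLXND1 and SEMA3C. The summed level of 8 fibroblast markers was 30.0 and 41.7 CPM in Cal27 parental, 322 and 313 in AfaR and 5.18 and 10.5 in ErlR, and 3 markers rose in AfaR, COL1A1 (3.15), PDGFRB (2.91) and LUM, which went from 3 and 1 counts to 794 and 418 and was kept by the filter through those libraries. COL1A1 made up 262 and 272 CPM of the AfaR sums, while 1 of the 8 markers was at 0 counts in each AfaR library. In each of these libraries 4 of the 8 reached 1 CPM, and DCN, PDGFRA, COL3A1 and POSTN did not. Of 10 squamous epithelial markers 9 fell in Cal27 AfaR (median -2.79), with KRT14 from 274 and 113 to 0.905 and 1.62 CPM, and the sum was 1100 and 1000 CPM against 5460 and 4240 in parental cells. In Cal27 ErlR, the sum was 5430 and 5250 CPM, with 1 marker higher and 4 lower. All FaDu libraries had 6760 to 13800 CPM of these markers. In Cal27 ErlR 3 fibroblast markers fell, led by COL1A1 (-2.41). Among endothelial markers ERG rose in FaDu ErlR (2.35, adjusted p = 0.0223), to 2.63 to 4.05 CPM, and 0 passed in either AfaR model. ERG was the 1 of 6 tested markers that passed in FaDu ErlR. Of these 6, 3 had a value above 0, and the list median was -0.30. The 6 leukocyte markers summed to 10.3 to 18.5 CPM in all libraries, and CD68 fell in both Cal27 models (-1.11 and -1.31). The part of these shifts in the NRP1 and semaphorin values was not tested.

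The genes next to VEGFC on chromosome 4 were compared as well. The 8 nearest genes tested in FaDu AfaR had a median log2 fold change of 1.20 (range -0.18 to 2.87), with VEGFC itself at 0.88. Of these 8, 4 passed, beside 17.9% of all genes. In Cal27 AfaR the median was 0.95 (range -0.44 to 2.01), and 2 of 8 passed, a share below the 37.6% over all genes. In the ErlR models, where VEGFC stood at 1.78 and 1.09, the medians were 0.28 in FaDu (0 passed) and 0.02 in Cal27 (1 passed). Over all genes 4.18% and 27.6% passed there. The 8 neighbours of ANGPTL4 had medians of -0.12 in FaDu ErlR and -0.02 in Cal27 ErlR, and those of NRP1 0.28 in Cal27 AfaR (range -0.12 to 2.35). The ANGPTL4 and NRP1 medians were far from the values of these 2 genes. The 8 neighbours of NRP2 had a median of -0.42 in FaDu AfaR (range -0.48 to 1.25), where NRP2 was at -1.50. Of these, 4 passed, beside 17.9% of all genes. In FaDu ErlR, with NRP2 at -1.04, their median was 0.07 and 0 passed.

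Across the 12 libraries and 13458 genes averaging 1 CPM or more, the gene whose log2(CPM + 1) followed ANGPTL4 most closely was BCAR1, an adaptor of SRC-family kinases, with a Pearson r of 0.943. It had 149 ± 4.14 CPM in FaDu parental and 189 ± 36.6 in ErlR, and 140 ± 25.6 in Cal27 parental and 239 ± 40.6 in ErlR (SD, n = 2). CAMK2N1 (0.941), RANBP9 (0.938), PPP4R1 (0.926) and DPH3 (0.916) came next. For VEGFC the closest were UBE2E2 (0.944), a ubiquitin-conjugating enzyme, SH3KBP1 (0.938), an adaptor of receptor endocytosis, C14orf119 (0.901), FLRT2 (0.865) and PDLIM7 (0.861). UBE2E2 had 13.0 ± 1.76 CPM in FaDu parental and 23.6 ± 2.71 in ErlR, and 14.8 ± 0.0968 in Cal27 parental and 24.6 ± 0.291 in ErlR. The 12 points of each correlation come from 6 groups in pairs, so r mostly reflects differences between groups, and it is given as a description.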

How the data were processed

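Sequencing of poly(A) RNA gave 12 libraries, with 2 cultures in each of the 6 groups. For each library the authors deposited unnormalized counts for Ensembl genes, aligned to GRCh38, and for the ERCC spike-ins. The submitters' processing notes name Trimmomatic 0.36, STAR 2.5.2b and featureCounts of Subread 1.5.2, and the strand setting is not given in the sources used here. Tables of normalized values for the 4 comparisons were also deposited and were not used, and 0 columns were left without a sample. Symbols came from GENCODE, in which 56948 of 58051 identifiers were found. Spike-ins stayed out of the library sizes.

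Counts were tested in R 4.3.3 with edgeR 4.0.16 (TMM, filterByExpr, glmQLFit, glmQLFTest, Benjamini-Hochberg over all genes tested), with 1 fit per line over 6 libraries (15092 genes in FaDu, 15269 in Cal27, 3 residual degrees of freedom) and 1 fit over 12 for interactions and for the parental lines (16240 genes). Biological coefficients of variation were 14.5% in FaDu and 15.3% in Cal27. The fits were tested on simulated data.

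The 10 genes and all lists were chosen with earlier results of these data known. Genes named from lists are at most the 3 with the largest change per list and comparison, with an adjusted p under 0.05, a log2 fold change over 1 in size and a mean of at least 1 CPM. The 5 genes most like ANGPTL4 and VEGFC were taken by Pearson correlation of log2(CPM + 1). FLT4, LPL, CLDN5 and VWF, and some values of listed genes in other groups, were named after their values were seen. Levels per kilobase use the exon length in the count tables. Alternatives were DESeq2 1.42.0, RLE normalization, no filter, ERCC scaling, a replicate block, fits over 4 or 12 libraries and leaving out each library in turn.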

Additional observations from a re-analysis of the deposited data

Results flagged for a closer look

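For 4 genes the afatinib-resistance effect differed between the lines by the interaction test, with FaDu minus Cal27 values of -0.95 for VEGFA, 3.48 for PGF, -2.23 for NRP1 and -1.35 for NRP2 (edgeR adjusted p = 0.0196, 0.00369, 0.000202 and 0.000842). For erlotinib resistance the same test passed for VEGFA (-1.17), NRP1 (-1.03) and NRP2 (-0.83), with adjusted p = 0.00771, 0.0240 and 0.0170. PGF was the gene whose effect passed in both lines in opposite directions. The AfaR and ErlR interactions share the parental libraries. No group had enough libraries for a test of single outlying samples.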

How the results depend on the processing

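The count of genes that passed in FaDu ErlR was 1 and became 2 with DESeq2, 3 without the filter on low counts, 2 with ERCC scaling, 2 in the fit over all 12 libraries and 2 in the fit over 4 libraries. In FaDu ErlR against AfaR it was 1 and became 2 without the filter and 3 with ERCC scaling. All other counts stayed within 1.5 times under the alternatives that kept all libraries. In the ranges that follow, the filter kept FLT1 in FaDu through its resistant libraries and ANGPTL2 in Cal27 through its AfaR libraries. A pass of either gene is therefore not evidence of a difference. The ranges that count them are a description without a test. Leaving out 1 library gave 1 to 6 genes in FaDu AfaR with FLT1 counted, 0 to 1 in FaDu ErlR, 2 to 4 in Cal27 AfaR, 2 to 2 in Cal27 ErlR, 0 to 1 in FaDu ErlR against AfaR, 2 to 4 in Cal27 ErlR against AfaR (in 3 of 4 fits with ANGPTL2, which the filter then kept), 3 to 4 for the AfaR interaction, 1 to 3 for the ErlR interaction and 2 to 4 for the parental lines, with 1 fewer residual degree of freedom and the lone library of a group assumed to vary like the others. Directions turned only for values that had not passed, with ERCC scaling for ANGPTL4 in FaDu AfaR (0.12), VEGFA (0.21) and VEGFB (0.42) in FaDu ErlR and VEGFB (0.16) and NRP1 (0.09) in FaDu ErlR against AfaR. The cause was not tested. Replicate numbers did not pair the cultures, since the correlations of same-numbered deviations ran from -0.323 to 0.212, and the fit with the replicate block changed no call but turned PGF in Cal27 ErlR to 0.02. With 1 library left out, signs turned, for values that had not passed, of VEGFB in FaDu AfaR (-0.07 to 0.23), ANGPTL4 in FaDu AfaR (-0.48 to 0.42), VEGFB in FaDu ErlR (-0.22 to 0.08), PGF in FaDu ErlR (-0.22 to 0.78), NRP2 in Cal27 AfaR (-0.26 to 0.01), PGF in Cal27 ErlR (-0.41 to 0.49), NRP1 in FaDu ErlR against AfaR (-0.52 to 0.16), NRP2 in Cal27 ErlR against AfaR (-0.24 to 0.07), VEGFC in the AfaR interaction (-0.06 to 0.30), PGF in the ErlR interaction (-0.19 to 0.82) and VEGFA in the parental lines (-0.02 to 0.18). Depth limits FLT1, KDR and ANGPTL2, which had at most 32, 6 and 22 counts in any library.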
